A study of Homo sapiens with 24 samples.

Results

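The 43 genes described here act in DNA replication and S phase. They were taken from a list of genes that rise at the G1/S boundary or serve the replication fork. The list was chosen by function, with earlier results of these data known. All 43 were found among 57721 genes summed from transcript estimates, and all 43 passed the filter on low counts that left 24153 genes for testing. They cover 349 transcripts on 19 chromosomes. By role they comprise the 6 subunits of the MCM2-7 helicase, 8 genes of origin licensing and helicase activation, 10 genes of the polymerases, clamp, clamp loaders and strand processing, 3 genes of deoxynucleotide supply, 7 genes of histone supply and chromatin, 8 genes of fork protection, checkpoint and repair, and the repressor E2F8.

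RNA was sequenced from HCT116, a human colorectal cancer cell line, in 8 groups of 3 libraries. The 4 untransfected groups were wild type, TNRC6A-/-, TNRC6B-/- and TNRC6AB-/- cells. The 4 transfected groups were wild type and TNRC6AB-/- cells that received either siTNRC6C, a pool of duplexes against TNRC6C, or siGL2, a duplex with no complementary target. TNRC6 proteins bind Argonaute and bring the machinery that silences messenger RNAs targeted by microRNAs. Each knockout was a single line, with a frameshift in TNRC6A, a large deletion in TNRC6B, or both. All lines were at passages 12 to 18 in the labels and were kept in the same medium. For transfection, TNRC6AB-/- cells were seeded more densely than the other lines because they grew more slowly, so seeding density and genotype cannot be told apart in the transfected groups. Nothing in the labels states that the 3 libraries of a group came from separate cultures, so the p-values measure the spread between these libraries, which may be technical.

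Before S phase, the MCM2-7 ring is loaded onto origins by CDC6 and CDT1, and geminin (GMNN) restrains that loading once replication has begun. CDC45 and the GINS complex then turn MCM2-7 into the active helicase, PCNA and its loader RFC clamp the polymerases to DNA, and thymidylate synthase (TYMS) and ribonucleotide reductase (RRM1, RRM2) supply deoxynucleotides. Many of these genes are transcribed by E2F factors in late G1, with the RB family and the atypical factors E2F7 and E2F8 as repressors. Proliferating colorectal cancer cells express the whole set. In whole-cell RNA, fewer cells in S phase and less RNA of these genes per cell cannot be told apart.

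E2F words were searched in the RefSeq promoters of the GRCh38.p14 build, each holding 250 bases before and 50 bases after a start site. The words were TTTCCCGC, TTTCGCGC, TTTGCCGC and TTTGGCGC on both strands, and overlapping matches were allowed. Of the 43 genes, 35 matched a promoter by symbol, and 21 of the 35 (60%) held at least 1 word at any of their starts. Among all 27305 genes with a promoter the share was 3.99%, and among all 35116 promoters it was 3.31%. Of 56 other replication genes listed beside the 43, 47 matched a promoter, and 13 of these (27.7%) held a word. The stretches below are shown because they belong to genes on which the results turn: the helicase subunits MCM6 and MCM3, the fork protection gene TIPIN and the chromatin gene CDCA7, which were lower in TNRC6AB-/- cells with siTNRC6C, and the clamp gene PCNA and the checkpoint gene CLSPN, which were not called there. Capitals mark the E2F word or overlapping words. All are read 5′ to 3′ on the strand of the gene.
MCM6 (chr2:135876578-135876605, minus strand): gggctttgcaTTTGGCGCGAAAtccctt
MCM6 (chr2:135876516-135876543, minus strand): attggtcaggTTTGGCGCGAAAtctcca
MCM3 (chr6:52284729-52284756, minus strand): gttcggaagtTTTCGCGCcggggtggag
TIPIN (chr15:66356734-66356761, minus strand): cccgcacggaTTTGGCGCCAAAcgctgc
CDCA7 (chr2:173354797-173354824, plus strand): gtgtcccaacGCGGGAAAgacagcccga
PCNA (chr20:5126664-5126691, minus strand): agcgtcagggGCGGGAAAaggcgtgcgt
CLSPN (chr1:35769966-35769993, minus strand): ctctggctggGCGGGAAAgcaagaacag

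In MCM6 the words TTTGGCGC and GCGCGAAA overlap at both places, starting 152 and 90 bases before the start site. TIPIN has 2 start sites in the table, and the stretch shown lies by the one further downstream in the gene. The word CCAAT, the site of NF-Y, was found on either strand in 24 of 35 members (68.6%) against 39.7% of all genes with a promoter. Of the 47 other replication genes, 25 (53.2%) held it. The cell cycle homology region TTTGAA, common in genes of G2 and mitosis, was found in 3 of 35 members (8.57%) against 18.2% of all genes. Of the 47 other replication genes, 5 (10.6%) held it. A match describes the letters in the window and is not evidence of binding.

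The 24 libraries held 28144290 to 42689320 estimated reads. Values below are CPM, the estimated reads of a gene scaled to a common library total after TMM, unless TPM, which is also divided by transcript length, is named. The keratin and adhesion markers of epithelium were present in every group (KRT8 422 to 1199 CPM over all libraries), while VIL1, a marker of mature enterocytes, stayed below 0.442 CPM. Of 9 epithelial markers, 4 were called lower in TNRC6AB-/- cells with siTNRC6C against wild type cells with siGL2, down to -1.55, where 25.2% of all genes were. In TNRC6A-/- cells 2 were called higher and 4 lower, where 8.52% and 5.47% of all genes were. In TNRC6AB-/- cells 2 were called higher and 4 lower, down to -2.10, where 17.2% and 12.3% of all genes were. Of 15 markers of blood, endothelium and fibroblasts, 8 passed the filter. The summed level of all 15 was 6.28 to 19.5 TPM over the untransfected wild type, TNRC6A-/- and TNRC6B-/- libraries and 20.3 to 34.3 TPM in TNRC6AB-/-. Among transfected libraries it was 7.73 to 13.3 TPM in wild type cells and 15.9 to 30.4 TPM in TNRC6AB-/- cells, mainly through the collagens COL1A1 and COL3A1, and its part in the results was not tested. The markers CD3E, CD14, CDH5, LUM, HBB and PDGFRA were near 0 in all groups. PTPRC, CD68, PECAM1, VWF and COL1A2 were measured at group means of 0.534 (VWF) to 3.83 CPM (CD68). Between wild type cells with siGL2 and TNRC6AB-/- cells with siTNRC6C, VWF went from 0.666 to 1.68 CPM (1.09) and PTPRC from 0.589 to 1.23 CPM (0.84), both called higher, CD68 from 3.83 to 1.99 CPM (-1.20), called lower, and PECAM1 from 1.06 to 1.89 CPM, which was not called. TNRC6C was lower with siTNRC6C than with siGL2 in wild type cells (log2 -1.35 ± 0.09, SE) and in TNRC6AB-/- cells (-2.60 ± 0.09). TNRC6A RNA was lower in TNRC6A-/- than in wild type cells (-0.70 ± 0.10), and TNRC6B RNA was lower in TNRC6B-/- cells (-0.68 ± 0.09).

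The summed level of the 43 genes differed between libraries of the same group, most in untransfected wild type cells and also in TNRC6A-/- cells and in wild type cells with siGL2. In untransfected wild type cells it was 3887, 1588 and 3894 CPM in replicates 1, 2 and 3. Replicate 2 was below the mean of the other 2 replicates for 43 of 43 members, by a median of -1.36 on the log2 scale, from -1.97 for MCM4 to -0.17 for USP1. It was the lowest of all 24 libraries for 40 members. Its total of 29140080 reads was close to the 29405732 reads of replicate 1. In TNRC6A-/- cells it was 4138, 2987 and 3882 CPM, with replicate 2 below the group mean for 43 of 43 members. In wild type cells with siGL2 the summed level was 5594, 5485 and 4359 CPM, and replicate 3 was below the mean of the other 2 for 43 of 43 members, by a median of -0.34. In coding TPM, which is TPM divided again by the total of coding genes so that short noncoding RNAs no longer enter it, that library held 3895 against 4056 and 3988 in the other 2, whereas wild type replicate 2 held 1681 against 3771 and 3611. On that scale TNRC6B-/- replicate 1 also stood apart, with 4317 against 2563 and 2319.

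**Figure D1:**
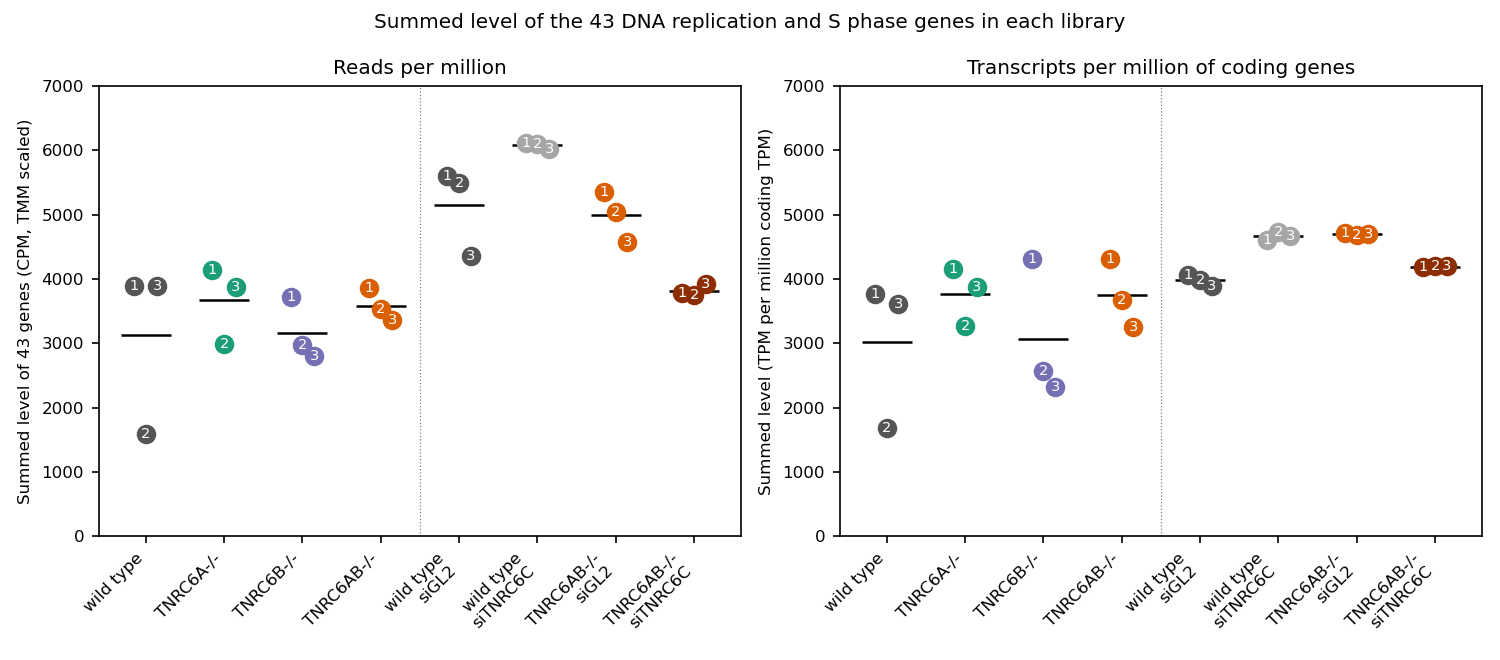
Summed level of the 43 genes in each of the 24 libraries by group, in CPM (left) and in coding TPM (right), both on linear axes from 0, with a bar at the group mean and numerals for the replicates. Wild type replicate 2 is the lowest library on both scales (1588 and 1681), and the 3 libraries of wild type cells with siTNRC6C are the highest in CPM, at 6028 to 6121.

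The genes moved together from library to library within groups. After the group mean was removed, each gene was correlated with the mean of the other 42 over the 24 libraries, as a description over libraries that share their depth and scaling. The median correlation was 0.951, and it was over 0.8 for 40 of 43 genes. In the 21 libraries left without wild type replicate 2, TNRC6A-/- replicate 2 and replicate 3 of wild type with siGL2, a choice made after seeing the data, the median was 0.813 and 22 genes were over 0.8. The lowest values were 0.282 for USP1, a deubiquitinase that acts on PCNA, 0.594 for the origin loader CDC6, and 0.615 for RPA2, a subunit of the single-strand DNA binding protein. The spread was larger without transfection. The median pooled SD of a member was 0.45 on the log2 scale in untransfected groups, 0.237 in the 3 untransfected knockout groups alone, and 0.12 in transfected groups, and 43 of 43 members had the larger SD in untransfected groups. The fit across all 24 libraries shares 1 estimate of the spread for each gene, drawn from both kinds of group.

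The effect of siTNRC6C had opposite signs in the 2 genotypes. In wild type cells, all 43 genes had a higher mean with siTNRC6C than with siGL2, by a median log2 difference of 0.26 against 0.001 over all genes, and none passed an adjusted p of 0.05 (edgeR quasi-likelihood test, Benjamini-Hochberg). Over all genes tested 0.397% were called higher and 0.534% lower, and 5 members were higher at an unadjusted p under 0.05. The share of all genes under that unadjusted cut was not counted, here or in later comparisons, so such counts have no background. DESeq2 called 0 members as well. For 34 of 43 members the siTNRC6C libraries lay above every siGL2 library, against 16.3% of all genes. In TNRC6AB-/- cells, 42 of 43 genes had a lower mean with siTNRC6C, by a median of -0.31 against -0.02 over all genes. There edgeR called 0 members higher and 3 lower (DESeq2 0 and 4), with 11 lower at an unadjusted p under 0.05, where 2.19% of all genes were called higher and 4.38% lower. For 37 of 43 members all siTNRC6C libraries lay below every siGL2 library, against 27.9% of all genes. In coding TPM, 8 members were higher and 35 lower with siTNRC6C in TNRC6AB-/- cells. Their median was -0.11, where the median coding gene was higher by 0.11.

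TIPIN, the partner of TIMELESS that steadies the fork, was the member with the clearest change of sign. Its level in wild type cells was 28.9, 28.96 and 24.1 CPM with siGL2 and 35.4, 35.04 and 35.2 CPM with siTNRC6C. In TNRC6AB-/- cells it was 29.2, 27.1 and 24.4 CPM with siGL2 and 15.2, 16.8 and 18.2 CPM with siTNRC6C. The siTNRC6C libraries were all higher in wild type and all lower in TNRC6AB-/- cells, with no overlap in either. The log2 change was 0.37 ± 0.15 (SE) in wild type cells (edgeR adjusted p = 0.29) and -0.69 ± 0.15 in TNRC6AB-/- cells (edgeR adjusted p = 0.00975). The difference between the effects was -1.05 ± 0.21, and TIPIN was the only member called in this interaction (edgeR adjusted p = 0.0108). Over all genes, 0.903% were called higher and 2.13% lower in that test. All 43 members had a negative difference, with a median of -0.65 against -0.01 over all genes. At an unadjusted p under 0.05, 19 were lower, again without a count over all genes.

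CDCA7, which recruits the remodeller HELLS to chromatin, stood at 39.9, 38.1 and 34.7 CPM in TNRC6AB-/- cells with siGL2 and at 23.3, 23.8 and 23.5 CPM with siTNRC6C. In wild type cells it was 71.5, 73.9 and 56.6 CPM with siGL2 and 74.5, 73.8 and 76.7 CPM with siTNRC6C. The CDCA7 groups overlapped in wild type cells and did not overlap in TNRC6AB-/- cells. SLBP, the protein that binds the stem loop of histone messenger RNAs, was 100.3, 93.03 and 82.7 CPM with siGL2 and 59.6, 60.1 and 60.2 CPM with siTNRC6C in TNRC6AB-/- cells. All SLBP values with siTNRC6C were lower. Both genes were called lower there, CDCA7 by -0.67 ± 0.20 (SE, edgeR adjusted p = 0.049) and SLBP by -0.62 ± 0.17 (edgeR adjusted p = 0.0346). These calls were near the threshold. The CDCA7 call was lost when any 1 of the 6 libraries was left out, the SLBP call in 5 of the 6 cases, and the TIPIN call without replicate 1 of either group, so that 0 to 2 members were called. Without replicate 1 of either group 0 were called, without replicate 3 of the siGL2 group 2, and without any other library 1, where 0.982% to 3.46% of all genes were called lower.

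**Figure D2:**
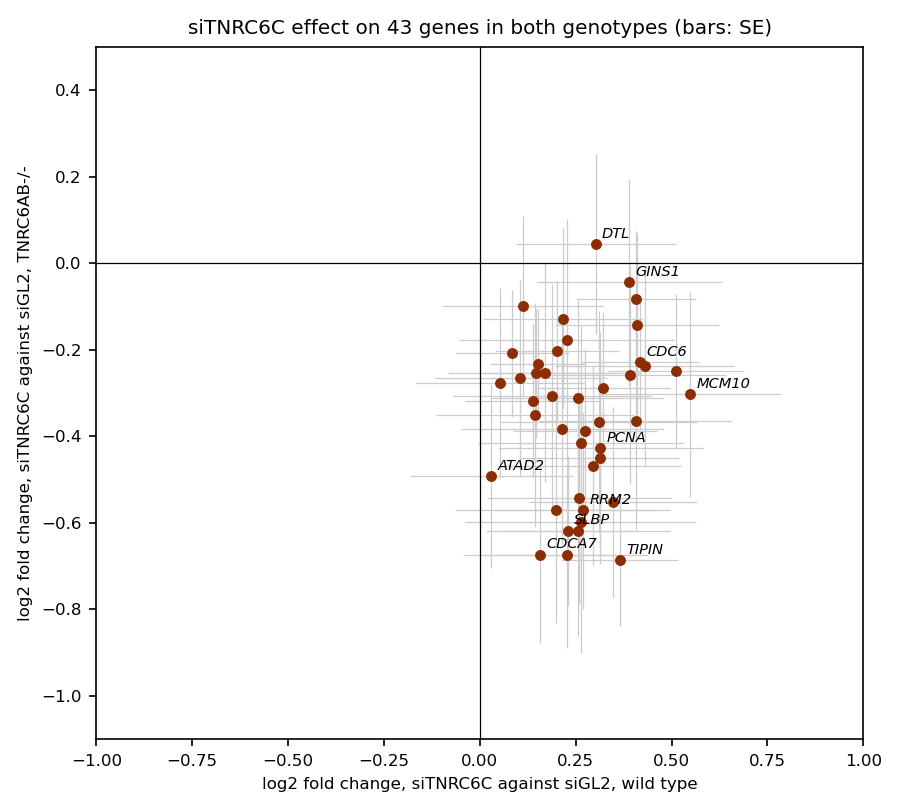
Log2 change with siTNRC6C against siGL2 in wild type cells (horizontal axis) and in TNRC6AB-/- cells (vertical axis) for the 43 genes, with bars at 1 SE. All 43 points lie right of 0, and 42 lie below 0, with TIPIN, MCM6 and CDCA7 lowest.

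Among replication licensing and helicase activation genes, MCM10, which helps CDC45 and GINS engage the helicase, was 80.4, 77.2 and 58.8 CPM with siGL2 and 104, 106 and 106 CPM with siTNRC6C in wild type cells. The TNRC6AB-/- values were 87.04, 83.9 and 74.5 CPM with siGL2 and 66.8, 62.6 and 69.5 CPM with siTNRC6C. In CPM the groups did not overlap in either genotype and moved in opposite directions. CDC6 was 119, 122 and 99.5 CPM with siGL2 and 149.9, 151 and 154 CPM with siTNRC6C in wild type cells. The TNRC6AB-/- values were 129, 124 and 116 CPM with siGL2 and 103, 105 and 107 CPM with siTNRC6C. CDC6 followed the same order in CPM, again without overlap. In TPM both genes overlapped in TNRC6AB-/- cells. There MCM10 was 21.45 to 24.2 TPM with siGL2 and 17.9 to 22.6 with siTNRC6C, and CDC6 was 42.07 to 46.3 and 38.7 to 45.7. In coding TPM, 4 licensing and activation genes were higher and 4 lower with siTNRC6C in TNRC6AB-/- cells, with a median of 0.02. The median coding gene was higher by 0.11. Neither gene was called in either genotype or in the interaction, where the difference was -0.85 ± 0.33 for MCM10 (edgeR adjusted p = 0.166) and -0.65 ± 0.22 for CDC6 (edgeR adjusted p = 0.103).

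Without replicate 3 of wild type cells with siGL2, the library with a lower summed level, 39 members were higher and 4 lower with siTNRC6C in wild type cells, with a median of 0.14. The median of the interaction was then -0.53, with 43 of 43 negative and TIPIN again called. In a fit of the 6 libraries compared alone, in which the untransfected groups did not enter the spread, 20 members were called higher in wild type cells (7.72% of all genes) and 36 lower in TNRC6AB-/- cells (22.9%). In the 12 transfected libraries alone, 41 members were called lower in the interaction (20.7%). With the spread estimated in the 23 libraries other than wild type replicate 2, an alternative chosen after seeing the data, the counts were 2 higher in wild type cells (0.815% of all genes), 14 lower in TNRC6AB-/- cells (7.13%) and 20 lower in the interaction (4.25%). The medians kept their sign under these fits, and the number of calls differed with the libraries behind the shared spread.

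The largest set of calls came from the comparison of TNRC6AB-/- cells with siTNRC6C with wild type cells with siGL2, in which all 3 paralogs were targeted. Values joined by "against" below are given with wild type cells first. It shares its control libraries with the siTNRC6C comparison in wild type cells. Of the 43 genes, edgeR called 17 lower and 0 higher (DESeq2 18 and 0), with 19 lower and 1 higher at an unadjusted p under 0.05, where 25.2% of all genes were called lower and 17% higher. The median log2 change was -0.44 against 0.01 over all genes, with 38 negative and 5 positive. For 27 members all TNRC6AB-/- libraries lay below all wild type libraries, against 32% of all genes, and for 4 members they lay above, against 28.2%. The calls were unequally spread over the roles. They took in 5 of 6 subunits of the MCM2-7 helicase, 0 of 8 licensing and activation genes, 4 of 10 genes of the polymerases and clamp, 1 of 3 nucleotide genes, 4 of 7 histone and chromatin genes, 2 of 8 fork and repair genes, and E2F8. Differences between the roles were not tested.

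**Figure D3:**
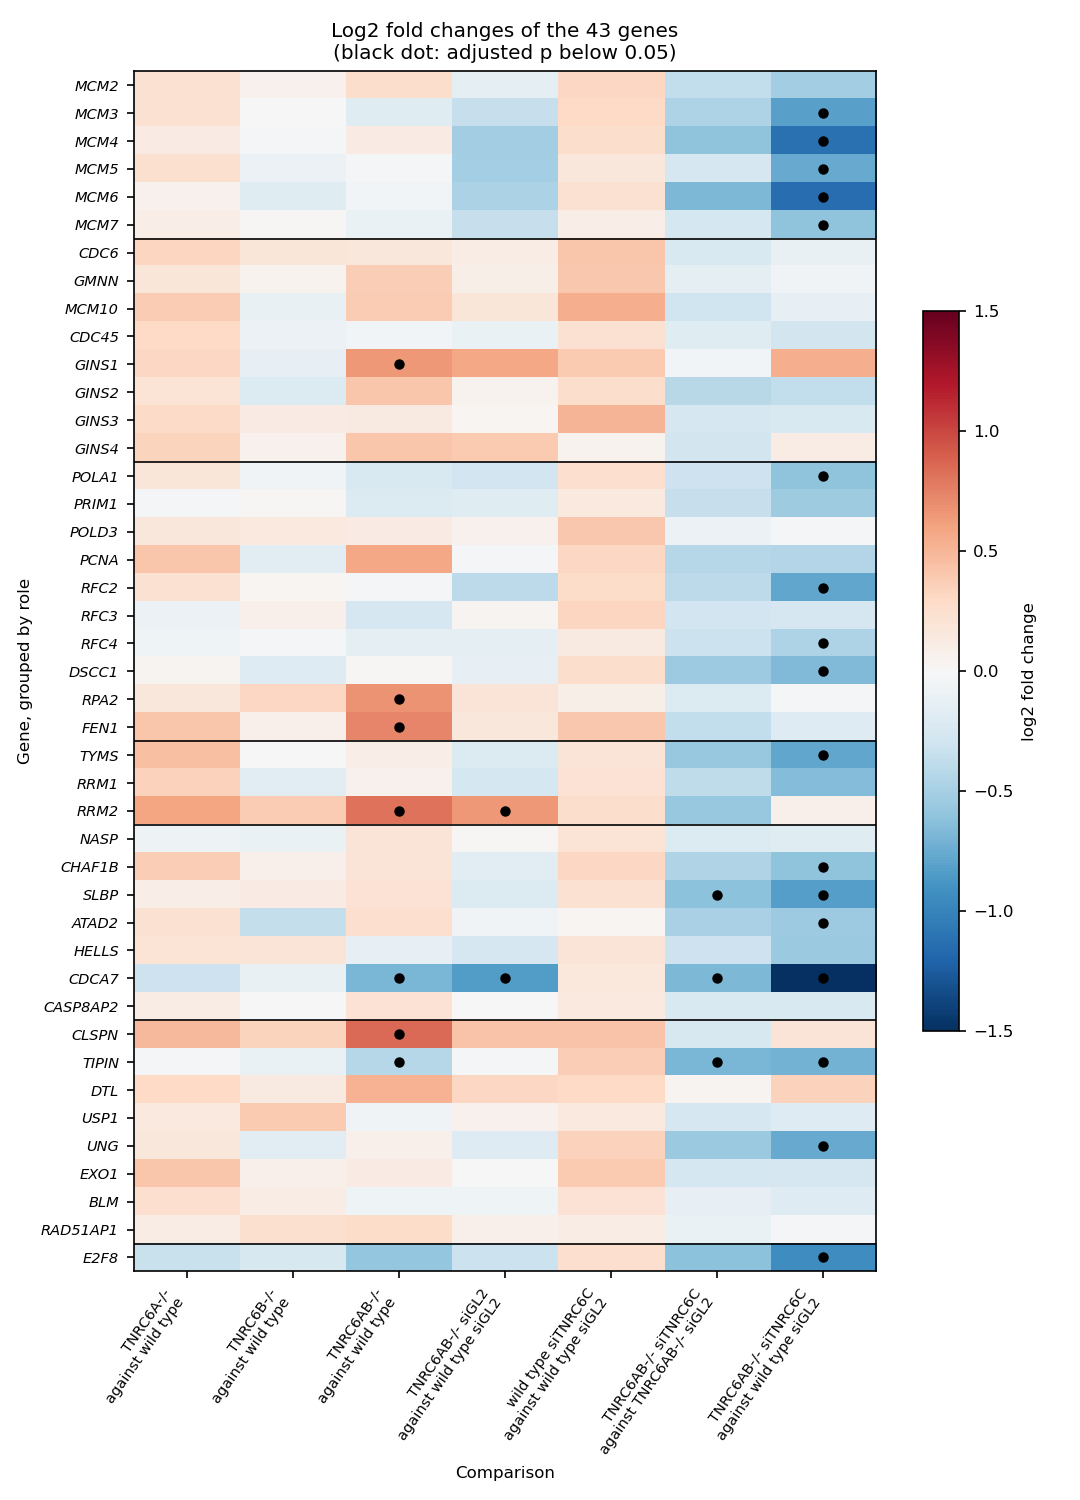
Log2 fold change of each of the 43 genes (vertical axis, grouped by role) in 7 comparisons (horizontal axis), with a colour scale from -1.5 to 1.5 and a black dot where the adjusted p was below 0.05. The column for TNRC6AB-/- cells with siTNRC6C against wild type cells with siGL2 holds 17 dots, all on lower genes.

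Within the helicase, MCM6 was 213, 202 and 158 CPM in wild type cells with siGL2 and 83.3, 85.2 and 90.2 CPM in TNRC6AB-/- cells with siTNRC6C. MCM4 was 365, 358 and 275 CPM against 153, 151 and 157 CPM in the same groups. MCM5 was 136, 144 and 109 CPM against 75.05, 77.2 and 77.8 CPM. For all 3 subunits every wild type library was above every TNRC6AB-/- library. The log2 changes were -1.15 ± 0.22 (SE) for MCM6 (edgeR adjusted p = 0.000179), -1.11 ± 0.31 for MCM4 (edgeR adjusted p = 0.00531) and -0.76 ± 0.25 for MCM5 (edgeR adjusted p = 0.02). MCM3 (-0.81) and MCM7 (-0.61) were also called lower. MCM2 was 166, 169 and 126 CPM against 106, 108 and 109 CPM, and its difference of -0.52 ± 0.26 was not called (edgeR adjusted p = 0.109). MCM2 did not overlap between the groups in CPM either. In TPM, MCM2 was higher, at 28.4 to 30.2 in wild type and 32.4 to 36.6 in TNRC6AB-/- cells, and MCM5 overlapped.

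None of the licensing and activation genes was called. CDC6 was 119, 122 and 99.5 CPM in wild type cells with siGL2 and 103, 105 and 107 CPM in TNRC6AB-/- cells with siTNRC6C, and the groups overlapped. GMNN, geminin, was 62.7, 60.9 and 46.2 CPM against 54.2, 53.7 and 55.8 CPM and overlapped as well. CDC45 was 28.4, 30.4 and 24.04 CPM against 22.6, 22.5 and 23.3 CPM, with every TNRC6AB-/- value lower by a small margin. GINS2, 1 of the 4 GINS subunits, was 54.7, 56.4 and 40.1 CPM in wild type cells and 37.7, 39.2 and 40.3 CPM in TNRC6AB-/- cells, with overlap at replicate 3 of wild type cells. Their log2 changes in CPM were -0.11, -0.05, -0.28 and -0.37, with SE of 0.15 to 0.28, and none was called. In TPM, CDC45 was 12.2 to 17.4 in wild type and 18.5 to 21.45 in TNRC6AB-/- cells. GINS2 was 12.6 to 14.04 and 16.02 to 17.2 TPM, so both were higher there without overlap. CDC6 (28.7 to 33.8 and 38.7 to 45.7 TPM) and GMNN (36.4 to 39.2 and 53.9 to 58.7 TPM) were too. In coding TPM all 8 licensing and activation genes were higher, with a median of 0.42, where the median coding gene was higher by 0.36. GINS1, another GINS subunit, was the member with the most positive change, at 56.96, 56.5 and 45.4 CPM against 77.8, 75.7 and 77.7 CPM. Every GINS1 value was higher in TNRC6AB-/- cells, and the change of 0.54 ± 0.24 was not called (edgeR adjusted p = 0.0744).

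At the fork, POLA1, the catalytic subunit of polymerase alpha, was 85.6, 86.7 and 74.4 CPM in wild type cells with siGL2 and 51.96, 56.4 and 54.02 CPM in TNRC6AB-/- cells with siTNRC6C. PCNA was 261, 259.6 and 190.2 CPM against 170.3, 169 and 185 CPM. RFC3, a subunit of the clamp loader, was 48.4, 49.96 and 41.5 CPM against 39.8, 38.9 and 38.7 CPM. In CPM, POLA1, PCNA and RFC3 were lower in every TNRC6AB-/- library, with PCNA and RFC3 close to wild type replicate 3. In TPM, PCNA was 121 to 128 in wild type and 135 to 151 in TNRC6AB-/- cells. RFC3 was 13.1 to 14.7 and 17.15 to 17.6 TPM, so both were higher there without overlap, while POLA1 overlapped. Of the 3, POLA1 was called (-0.60 ± 0.23, edgeR adjusted p = 0.0359), and PCNA (-0.44 ± 0.27, edgeR adjusted p = 0.192) and RFC3 (-0.25 ± 0.18, edgeR adjusted p = 0.251) were not. FEN1, which trims Okazaki fragments, was 123, 118 and 87.8 CPM against 95.6, 93.6 and 98.7 CPM and overlapped. In TPM, FEN1 was 31.5 to 33.7 and 42.03 to 45.2, higher in TNRC6AB-/- cells without overlap. RFC2 (-0.78), DSCC1 (-0.66), a subunit of an alternative clamp loader, and RFC4 (-0.46) were the other 3 calls of this group. The POLA1 call was lost under 7 of 15 other settings, that of RFC4 under 7 and that of DSCC1 under 6, while RFC2 was called under all 15.

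Of the nucleotide genes, TYMS was 266, 252 and 198 CPM in wild type cells with siGL2 and 135, 139 and 144 CPM in TNRC6AB-/- cells with siTNRC6C. RRM2, the regulatory subunit of ribonucleotide reductase, was 488, 481 and 364 CPM against 467, 463 and 479 CPM. In CPM, TYMS was lower in every TNRC6AB-/- library, whereas the RRM2 groups overlapped. TYMS changed by -0.78 ± 0.26 (edgeR adjusted p = 0.0213), and the RRM2 difference of 0.08 ± 0.23 was not called (edgeR adjusted p = 0.795). In TPM, RRM2 was 108 to 112 in wild type and 182.5 to 195 in TNRC6AB-/- cells, higher without overlap. TYMS was 115 to 122 and 102 to 110 TPM, still lower without overlap.

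CDCA7 was 71.5, 73.9 and 56.6 CPM in wild type cells with siGL2 and 23.3, 23.8 and 23.5 CPM in TNRC6AB-/- cells with siTNRC6C, the largest change of the 43 genes (-1.52 ± 0.21, edgeR adjusted p = 3.66e-06). SLBP was 116, 115 and 87.8 CPM against 59.6, 60.1 and 60.2 CPM (-0.82 ± 0.17, edgeR adjusted p = 0.000559). Both genes were lower in every TNRC6AB-/- library. The histone chaperone subunit CHAF1B (-0.61) and the chromatin ATPase ATAD2 (-0.54) were also called lower. E2F8 was 30.8, 33.96 and 26.7 CPM in wild type cells and 16.1, 16.5 and 15.3 CPM in TNRC6AB-/- cells, again without overlap (-0.94 ± 0.24, edgeR adjusted p = 0.00362). UNG, the glycosylase that removes uracil from DNA, was 106, 106 and 79.6 CPM against 56.2, 57.6 and 59.2 CPM (-0.75 ± 0.22, edgeR adjusted p = 0.00859), with every TNRC6AB-/- value lower. The other call among fork and repair genes was TIPIN (-0.71).

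CLSPN, the mediator of the replication checkpoint known as claspin, was 104, 99.9 and 78.9 CPM in wild type cells with siGL2 and 105, 105 and 113 CPM in TNRC6AB-/- cells with siTNRC6C. The exonuclease EXO1 was 55.5, 53.9 and 40.5 CPM against 43.6, 40.4 and 41.7 CPM. In CPM, CLSPN was higher in every TNRC6AB-/- library, by 0.19 ± 0.23 (edgeR adjusted p = 0.528), and EXO1 overlapped (-0.25 ± 0.25, edgeR adjusted p = 0.428). The margin for CLSPN was small, with 104.7 CPM in the lowest TNRC6AB-/- and 104.4 CPM in the highest wild type library. Neither was called. In TPM both were higher without overlap, CLSPN at 17.3 to 18.6 in wild type and 31.35 to 34.1 in TNRC6AB-/- cells. EXO1 was 13.6 to 15.4 and 18.9 to 21.06 TPM.

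**Figure D4:**
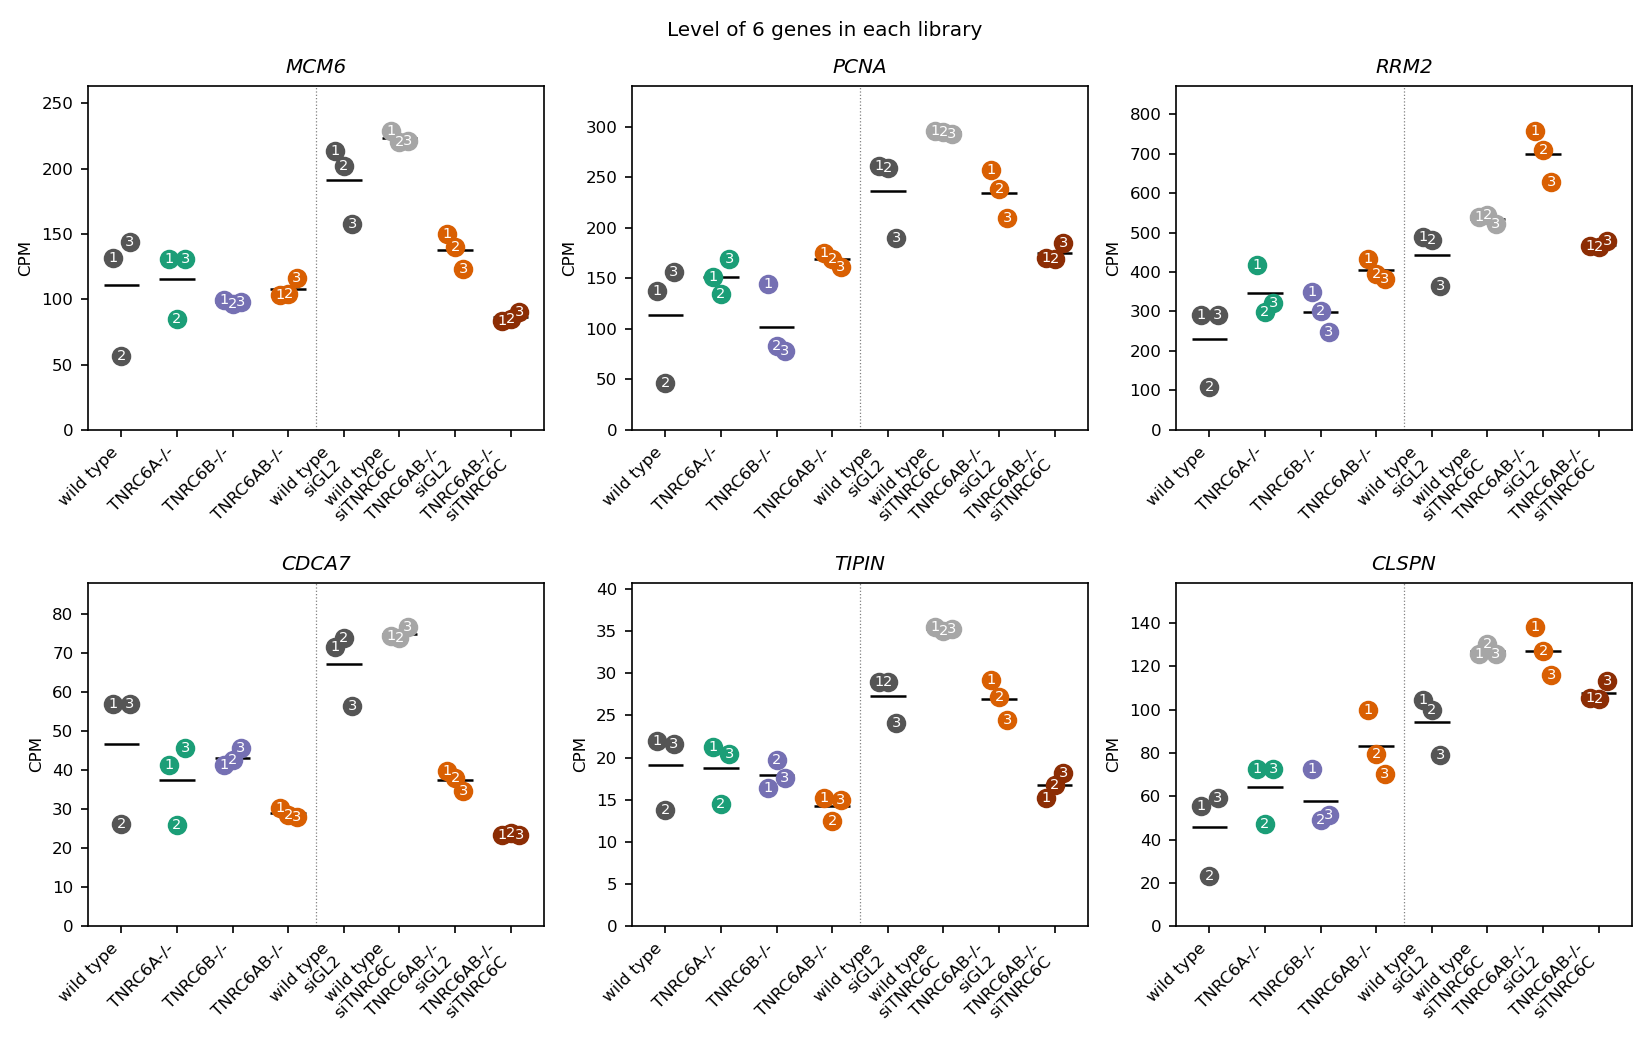
CPM of MCM6, PCNA, RRM2, CDCA7, TIPIN and CLSPN in each of the 24 libraries (1 panel per gene, vertical axis from 0), with a bar at each group mean. MCM6 and CDCA7 are lowest among transfected groups in TNRC6AB-/- cells with siTNRC6C, while CLSPN there lies at 105 to 113 CPM, above the wild type libraries with siGL2.

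The scale mattered for the direction of the summed level in this comparison. In CPM the sum was 5146 ± 684 (SD, n = 3) in wild type cells with siGL2 and 3818 ± 90.4 in TNRC6AB-/- cells with siTNRC6C. In coding TPM it was 3980 ± 80.8 and 4193 ± 11.9. On that second scale 27 members were higher and 16 lower, with a median of 0.11, but the median coding gene was also higher, by 0.36. Relative to it the member median was -0.25, and 32 of 43 members lay below the median coding gene. For siTNRC6C in TNRC6AB-/- cells the corresponding values were -0.22 and 38 of 43 members, and for siTNRC6C in wild type cells 0.24 and 0 of 43. When counts were recomputed from TPM and mean transcript length, 12 members were called lower and 1 higher in TNRC6AB-/- cells with siTNRC6C, where 22.6% and 15.7% of all genes were. Of the 17 members called lower in CPM, 13 were also lower in coding TPM, and MCM7 (0.03), RFC4 (0.06), POLA1 (0.003) and ATAD2 (0.14) had a positive difference there. Without replicate 3 of wild type cells with siGL2, 18 were called lower (26% of all genes), and the median was -0.57 with 39 negative. Without replicate 1 or 2 of either group 9 were called lower (19.6% to 20.8% of all genes), and without replicate 3 of TNRC6AB-/- cells 12 were (21.2%). CDCA7, E2F8, MCM3, MCM4, MCM6, RFC2, SLBP, TIPIN and UNG were called under all 15 other settings of the fit, and ATAD2, MCM5, MCM7, CHAF1B, TYMS, RFC4, POLA1 and DSCC1 lost their call under 5 to 8 of them.

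The E2F words were not confined to the genes called lower. Among the 17, promoters were matched for 12, of which 8 held a word, and among the other 26 they were matched for 23, of which 13 held a word. The chromatin gene CDCA7, called lower, and the checkpoint gene CLSPN, not called, both hold GCGGGAAA in the stretches printed above. Whether the words and the calls are linked was not tested.

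With siGL2 in both genotypes, TNRC6AB-/- cells had 1 member called higher and 1 lower, where 9.17% of all genes were called higher and 12.5% lower. The median was -0.05 against -0.003 over all genes, with 18 members positive and 25 negative. RRM2 was 488, 481 and 364 CPM in wild type cells and 758, 708 and 628 CPM in TNRC6AB-/- cells. CDCA7 was 71.5, 73.9 and 56.6 CPM against 39.9, 38.1 and 34.7 CPM. RRM2 was higher and CDCA7 lower in every TNRC6AB-/- library. The log2 changes were 0.65 ± 0.23 for RRM2 (edgeR adjusted p = 0.0435) and -0.84 ± 0.20 for CDCA7 (edgeR adjusted p = 0.00392). The RRM2 call was lost when any 1 of the 6 libraries was left out, and the CDCA7 call held under all 15 other settings. In CPM all 6 helicase subunits had a negative change, with a median of -0.41, and 7 of 8 licensing and activation genes a positive one, with a median of 0.10. In coding TPM 2 of the helicase subunits were higher and 4 lower, with a median of -0.08, and all 8 licensing and activation genes were higher. On that scale 36 of the 43 members were higher and 7 lower, with a median of 0.23, as was the median coding gene (0.23), so that the member median relative to it was -0.007. In TPM without that division 5 of 6 helicase subunits were higher, such as MCM2 (29.5 TPM in wild type and 37.7 TPM in TNRC6AB-/- cells), and MCM6 was lower (33.4 and 31.9 TPM). Without replicate 3 of wild type cells with siGL2, the median of the members in CPM was -0.14, 34 were negative, and 0 were called higher and 1 lower (7.52% and 13.2% of all genes).

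Without transfection, the comparisons of the knockouts rested in large part on wild type replicate 2. With all libraries, TNRC6A-/- cells had no member called by edgeR or DESeq2, where 8.52% of all genes were called higher and 5.47% lower, and 2 members were higher at an unadjusted p under 0.05. The median was 0.21 against 0.02 over all genes, with 36 members positive. Leaving out wild type replicate 1, wild type replicate 3 or TNRC6A-/- replicate 2 gave 1 call of a higher member, where 6.08% to 8.64% of all genes were called higher, and medians of 0.42, 0.41 and 0.38. Without wild type replicate 2 the median was -0.09, 32 members were negative, and CDCA7 (-0.60, adjusted p = 0.0116) and E2F8 (-0.67, adjusted p = 0.0154) were called lower by edgeR (4.31% of all genes). TNRC6B-/- cells also had no member called by edgeR or DESeq2, where 2.2% of all genes were called higher and 0.94% lower, and 2 members were higher at an unadjusted p under 0.05. Their median was 0.02 against 0.04 over all genes. Without wild type replicate 2 the median was -0.29, 38 members were negative, and GINS2 (-0.60), ATAD2 (-0.67) and DSCC1 (-0.56) were called lower (0.94% of all genes). Without TNRC6B-/- replicate 1, whose summed level was 3725 CPM against 2978 and 2798 in the other 2 replicates, the median was -0.14 and 1 member was called higher (7.27% of all genes).

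TNRC6AB-/- cells had 5 members called higher and 2 lower against wild type cells, where 17.2% of all genes were called higher and 12.3% lower. Libraries did not overlap for 6 members above and 0 below, against 19.4% and 14.6% of all genes. The median was 0.12 against 0.01 over all genes. CLSPN was 55.6, 23.1 and 59.1 CPM in wild type and 99.8, 79.3 and 70.2 CPM in TNRC6AB-/- cells. RRM2 was 292, 109 and 291 CPM against 434, 396 and 382 CPM. FEN1 was 70.5, 24.8 and 83.99 CPM against 101, 101 and 95.4 CPM. All 3 genes were higher in every TNRC6AB-/- library, and wild type replicate 2 was the lowest library of each. The log2 changes were 0.85 ± 0.24 for CLSPN (edgeR adjusted p = 0.00766), 0.81 ± 0.23 for RRM2 (edgeR adjusted p = 0.00925) and 0.73 ± 0.25 for FEN1 (edgeR adjusted p = 0.0331). RPA2 (0.68) and GINS1 (0.65) were called higher too.

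CDCA7 was 57.1, 26.2 and 57.02 CPM in wild type and 30.3, 28.5 and 28.1 CPM in TNRC6AB-/- cells. TIPIN was 21.9, 13.8 and 21.6 CPM against 15.2, 12.5 and 14.99 CPM. In both genes wild type replicates 1 and 3 lay above every TNRC6AB-/- library and replicate 2 did not. They were called lower, CDCA7 by -0.69 ± 0.20 (edgeR adjusted p = 0.0122) and TIPIN by -0.43 ± 0.16 (edgeR adjusted p = 0.0415), and both calls were lost without wild type replicate 1 or without replicate 3.

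Without wild type replicate 2, 3 members were called higher and 11 lower in TNRC6AB-/- cells, where 14.8% and 10.5% of all genes were, and the median was -0.13 with 30 members negative. CLSPN (0.54, adjusted p = 0.0321), RRM2 (0.47, adjusted p = 0.0214) and RPA2 (0.51, adjusted p = 0.0099) were the higher genes by edgeR. FEN1 (0.36, adjusted p = 0.105) and GINS1 (0.30, adjusted p = 0.182) were no longer called. The lower genes were CDCA7, E2F8, TIPIN, PRIM1, MCM3, POLA1, RFC3, MCM7, MCM5, RFC4 and BLM, from -0.98 for CDCA7 to -0.39 for BLM, the helicase mutated in Bloom syndrome. Without wild type replicate 3, 10 members were called higher and 0 lower (16.7% and 11.2% of all genes), and without replicate 1, 7 and 0 (14.4% and 10.6%). Without any 1 of the TNRC6AB-/- libraries 3 were called higher (11.9% to 17% of all genes), and 1 to 3 lower (10.3% to 12.1%). In the fit of the 6 libraries alone 1 was called higher and 0 lower (9.19% and 7.43%).

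**Figure D5:**
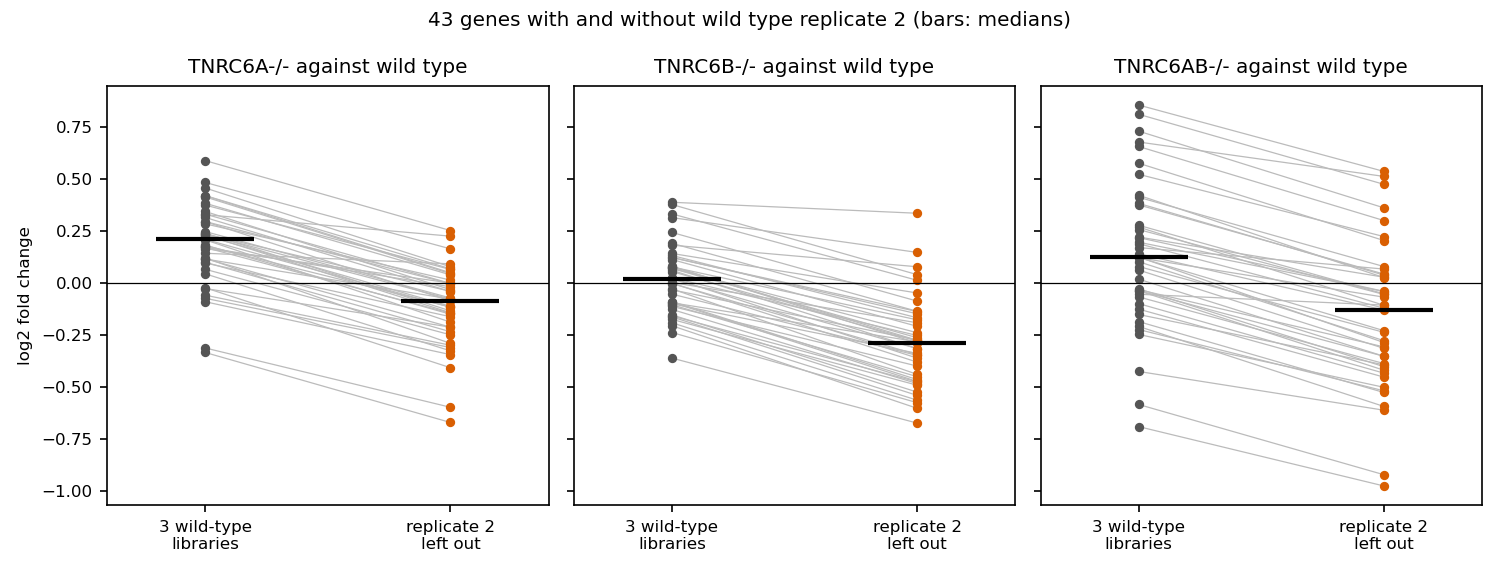
Log2 change of the 43 genes in TNRC6A-/-, TNRC6B-/- and TNRC6AB-/- cells against wild type cells, with all libraries and without wild type replicate 2, with a bar at each median. The medians shift from 0.21 to -0.09, from 0.02 to -0.29 and from 0.12 to -0.13.

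No member was called in the other interactions by edgeR or DESeq2. The TNRC6AB-/- effect minus the sum of both single effects had a median of -0.08 against -0.02 over all genes, where 3.47% of all genes were called higher and 4.28% lower, and 1 member was lower at an unadjusted p under 0.05. Without wild type replicate 2 its median was 0.25, and GINS1 (0.83), GINS2 (0.82), ATAD2 (0.70) and the histone chaperone NASP (0.61) were called higher (4.08% of all genes). The TNRC6AB-/- effect with siGL2 minus its effect without transfection had a median of -0.20 against -0.04, where 2.22% of all genes were called higher and 6.5% lower, and again 1 member was lower at an unadjusted p under 0.05. Without wild type replicate 2 that median was 0.09, with 31 members positive.

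Other replication genes were read from a list of 56 that had been set beside the 43, all of which were tested. In TNRC6AB-/- cells with siTNRC6C against wild type cells with siGL2, 3 were called higher (5.36%) and 16 lower (28.6%), against 17% and 25.2% of all genes, and without replicate 3 of wild type cells with siGL2 1 was called higher and 17 lower. The 4 with the smallest adjusted p were RPA3 (-2.14 ± 0.26), a small subunit of the single-strand binding protein, DUT (-1.49 ± 0.18), the enzyme that removes dUTP, SSRP1 (-0.91 ± 0.12), a subunit of the histone chaperone FACT, and POLD2 (-0.87 ± 0.12), a subunit of polymerase delta. The lowest, middle and highest RPA3 library were 42.4, 52.96 and 54.1 CPM in wild type cells with siGL2 and 10.9, 11.1 and 11.8 CPM in TNRC6AB-/- cells with siTNRC6C, with no overlap. RPA2, its partner in the same complex, was 67.6, 70.05 and 51.4 CPM against 60.6, 62.03 and 64.1 CPM and overlapped. In TPM, RPA2 was 25.02 to 26.4 and 36.75 to 40.1, higher in TNRC6AB-/- cells without overlap. In the other comparisons between groups, interactions aside and with all libraries, the shares of the list called were at or below those of all genes. In TNRC6A-/- cells 4 were called higher and 1 lower (7.14% and 1.79%, against 8.52% and 5.47% of all genes), and in TNRC6B-/- cells 1 and 0 (1.79% and 0%, against 2.2% and 0.94%). TNRC6AB-/- cells had 6 and 6 (10.7% each, against 17.2% and 12.3%), and with siGL2 they had 3 and 7 (5.36% and 12.5%, against 9.17% and 12.5%). For siTNRC6C 0 were called in wild type cells, and 0 higher and 2 lower in TNRC6AB-/- cells (3.57% lower, against 4.38%), namely SSRP1 (-0.42) and its FACT partner SUPT16H (-0.39). The counts without wild type replicate 2 were 2 and 4 in TNRC6A-/-, 1 and 1 in TNRC6B-/-, and 4 and 11 in TNRC6AB-/- cells. Without TNRC6A-/- replicate 2 they were 3 and 0 in TNRC6A-/- cells, and without replicate 3 of wild type cells with siGL2 0 and 9 in TNRC6AB-/- cells with siGL2. RRM2B, the p53-induced ribonucleotide reductase subunit, was called higher in TNRC6A-/- (0.45), TNRC6B-/- (0.42) and TNRC6AB-/- cells (0.71), also without wild type replicate 2 (0.52, 0.49 and 0.78).

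CCNE2 encodes cyclin E2, which drives entry into S phase. Its lowest, middle and highest libraries were 6.72, 19.2 and 20.1 CPM in wild type and 38.8, 40.2 and 46.9 CPM in TNRC6AB-/- cells. The groups did not overlap, and CCNE2 was called higher (1.45 ± 0.25, edgeR adjusted p = 8.55e-05), as it was in TNRC6A-/- cells (0.81). The first call held without wild type replicate 2 (1.09, edgeR adjusted p = 3.38e-05) and the second was lost (0.45, edgeR adjusted p = 0.0859). In wild type cells it was 21.6, 28.01 and 28.7 CPM with siGL2 and 45.4, 45.7 and 48.3 CPM with siTNRC6C. In TNRC6AB-/- cells it was 33.02, 38.4 and 38.9 CPM with siGL2 and 25.4, 27.5 and 28.2 CPM with siTNRC6C. It was higher with siTNRC6C in wild type and lower in TNRC6AB-/- cells, with no overlap in either, and the difference between the effects was called (-1.27 ± 0.34, edgeR adjusted p = 0.0431). POLE3, a small subunit of polymerase epsilon, was the other gene of the list called in that interaction (-0.82). The 2 genes were 3.57% of the list, where 2.13% of all genes were called lower. Both calls were lost without replicate 3 of wild type cells with siGL2, where the difference was -1.16 for CCNE2 (edgeR adjusted p = 0.144) and -0.69 for POLE3 (edgeR adjusted p = 0.119). The licensing factor CDT1 and thymidine kinase TK1 were called in no comparison, with log2 changes in TNRC6AB-/- cells with siTNRC6C of -0.54 ± 0.26 and -0.58 ± 0.29.

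Of 12 genes of the E2F and RB families, E2F7, the atypical repressor paired with E2F8, was called higher in TNRC6A-/- (0.72), TNRC6B-/- (0.57) and TNRC6AB-/- cells (1.10), in TNRC6AB-/- cells with siGL2 (1.38), and with siTNRC6C in TNRC6AB-/- cells (0.41). Its calls in the 3 untransfected knockouts held without wild type replicate 2 (0.64, 0.49 and 1.02), as did that with siGL2 without replicate 3 of its wild type group (1.30). Its lowest, middle and highest libraries were 40.5, 47.1 and 47.1 CPM in wild type cells with siGL2, 111, 115 and 124 CPM in TNRC6AB-/- cells with siGL2 and 153, 155 and 159 CPM in TNRC6AB-/- cells with siTNRC6C. These groups did not overlap and rose in that order. In CPM, E2F8 fell in that order, at 30.8, 33.96 and 26.7, then 25.6, 23.6 and 24.3, then 16.1, 16.5 and 15.3 CPM. Neither of these steps was called for E2F8. In TPM the first 2 groups overlapped for E2F8, at 5.91 to 6.82 and 6.3 to 6.98, and the third was 5.06 to 5.39. In TNRC6AB-/- cells with siTNRC6C, 3 genes of these families were called higher and 3 lower (25% each) against wild type cells with siGL2, where 17% and 25.2% of all genes were, with E2F7 at 1.79 ± 0.12 (edgeR adjusted p = 1.33e-10), E2F3 at 0.53, RBL2 at -0.54 and E2F4 at -0.52. E2F1, an activator of S phase genes, was called in no comparison. In untransfected TNRC6AB-/- cells the pocket protein RB1 was called higher (0.91, and 0.78 without wild type replicate 2).

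The members' reads came mainly from protein-coding transcripts, with a mean share of 86% in TNRC6A-/- libraries to 91.6% in wild type libraries with siTNRC6C. The transcript with most reads was protein-coding for all 43 genes. The share of noncoding types, such as retained introns, was highest for MCM7 (46.2%), BLM (40.1%), the recombination gene RAD51AP1 (38.7%) and CASP8AP2 (33%), so values of these genes hold more reads that may not stand for messenger RNA. With protein-coding transcripts alone, 11 members were called lower and 1 higher in TNRC6AB-/- cells with siTNRC6C against wild type cells with siGL2, where 29.1% and 23.7% of all genes were. Per length, on the TPM scale, the most abundant members in wild type cells with siGL2 were PCNA (121 to 128 TPM), NASP (116 to 122 TPM) and TYMS (115 to 122 TPM), which overlapped in their ranges. The least abundant were E2F8 (5.91 to 6.82 TPM), GINS3 (6.08 to 8.67 TPM), POLD3 (6.68 to 7.13 TPM) and GINS4 (7.21 to 9.19 TPM). The ranges of E2F8 and GINS3 and of GINS3 and POLD3 overlapped, and those of POLD3 and GINS4 did not.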

How the data were processed

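RNA from 24 HCT116 libraries (8 groups of 3) was analysed as deposited by the authors, as estimated counts and TPM per transcript from Salmon (version 0.11.0 per the labels, which also name STAR 2.5.3a, DESeq2 and the hg38 build). The labels name Trizol for RNA extraction and the methods of the study an RNeasy kit. The kit was strand specific, and the strand setting of counting is not given in the sources used here, so reads of genes that overlap on opposite strands may be mixed. Of 199612 transcripts, 199368 matched GENCODE 29, and the 244 others held at most 0.054% of a library's reads.

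Estimated counts were summed per gene, rounded and fitted with edgeR 4.0.16 (R 4.3.3) by quasi-likelihood, with TMM scaling (factors 0.853 to 1.17), filterByExpr and 1 mean per group over 24 libraries (16 residual degrees of freedom). Comparisons were contrasts of this fit. Benjamini-Hochberg adjustment ran over all 24153 genes tested, and genes with an adjusted p below 0.05 were called. DESeq2 1.42.0, other scalings, filters, gene values and fits, and the omission of each library were tried as alternatives. The scripts were tested on simulated data. Depth was 28144290 to 42689320 reads per library.

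The members and lists were chosen with earlier results of these data known. Values per library are given for 18 members chosen by role and for up to 4 called members per comparison with the largest log2 change, and, of the other replication genes, for up to 4 per comparison with the smallest adjusted p and for CDT1, CCNE2 and TK1. Other genes named were singled out after their values were seen.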

Additional observations from a re-analysis of the deposited data

Results flagged for a closer look

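Effects under the same contrast differed between groups for 7 genes of the lists described, by the interaction test in edgeR. The siTNRC6C effect was lower in TNRC6AB-/- than in wild type cells for TIPIN (log2 difference -1.05, adjusted p = 0.0108), with 3 of 3 siTNRC6C libraries above all siGL2 libraries in wild type and 3 of 3 below them in TNRC6AB-/- cells. CCNE2 (-1.27, adjusted p = 0.0431) and POLE3 (-0.82, adjusted p = 0.0329) were called there too, and both calls were lost without replicate 3 of wild type cells with siGL2, with adjusted p = 0.144 for CCNE2 and 0.119 for POLE3 by edgeR. The TNRC6AB-/- effect was below the sum of both single effects for ORC4 (-0.34, adjusted p = 0.0468), SSRP1 (-0.69, adjusted p = 0.00958) and E2F4 (-0.61, adjusted p = 0.0163) and was called for all 3 without wild type replicate 2 as well (-0.37, -0.55 and -0.65), whereas the ORC4 call was lost without TNRC6A-/- replicate 2 (-0.29, adjusted p = 0.121). The TNRC6AB-/- effect was lower with siGL2 than without transfection for RB1 (-0.65, adjusted p = 0.0101), also without wild type replicate 2 (-0.52) and without replicate 3 of wild type cells with siGL2 (-0.74).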

How the results depend on the processing

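No called change of a member turned its direction in any other fit, and in coding TPM, which was not fitted, 4 of the 17 genes called lower in TNRC6AB-/- siTNRC6C were higher. The counts of calls (edgeR, higher and lower given separately) depended on the fit. Shares of all genes called in the same fit are given in brackets. When only the groups compared were fitted, TNRC6AB-/- against wild type had 1 member higher and 0 lower (9.19% and 7.43%). TNRC6AB-/- siGL2 had 9 and 10 (19.9% and 17.5%). For siTNRC6C, 20 were higher in wild type (7.72%) and 36 lower in TNRC6AB-/- cells (22.9%). TNRC6AB-/- siTNRC6C against wild type siGL2 had 5 and 26 (31% and 28.9%), and the siTNRC6C interaction 41 lower (20.7%). In 2 alternatives chosen after seeing the data, other libraries entered. With the spread from 23 libraries, siGL2 had 3 and 5 (10% and 13.9%). For siTNRC6C, 2 were higher in wild type (0.815%) and 14 lower in TNRC6AB-/- cells (7.13%). TNRC6AB-/- siTNRC6C had 2 higher and 24 lower (17.5% and 26%), and the interaction 20 lower (4.25%). With 4 libraries left out (replicate 2 of wild type, replicate 1 of TNRC6B-/-, replicate 1 of TNRC6AB-/- and replicate 3 of wild type siGL2), TNRC6A-/- had 0 and 7 (13.9% and 10% of all genes), TNRC6B-/- 1 and 27 (17% and 7.46%), TNRC6AB-/- 4 and 17 (20.8% and 16.3%), siGL2 4 and 13 (14.6% and 22.3%), siTNRC6C 2 and 0 in wild type (1.82% and 3.97%) and 0 and 29 in TNRC6AB-/- cells (9.48% and 18.6%), TNRC6AB-/- siTNRC6C 1 and 32 (25.4% and 32.5%), its interaction 0 and 26 (3.76% and 7.67%), the interaction of both knockouts 12 and 1 (9.23% and 13.4%), and that of transfection 4 and 1 (9.12% and 18.8%). Without a filter on low counts, TNRC6A-/- had 1 higher (3.86%), siGL2 2 and 3 (4.76% and 6.18%) and siTNRC6C in TNRC6AB-/- cells 10 lower (2.77%). TNRC6AB-/- siTNRC6C had 1 and 21 (9.56% and 12.8%), its interaction 13 lower (1.45%) and that of both knockouts 1 lower (2.63%). From TPM and mean length, TNRC6A-/- had 2 higher (7.15%) and TNRC6AB-/- siTNRC6C 1 and 12 (15.7% and 22.6%). With protein-coding transcripts only, TNRC6A-/- had 1 lower (12.2%) and TNRC6AB-/- 3 higher (22.3%). TNRC6AB-/- siTNRC6C had 1 and 11 (23.7% and 29.1%), and the interaction 2 lower (5.5%). DESeq2 gave 5 lower in the interaction (4.78%), and a log2 limit of 0.6 left 1 lower in TNRC6AB-/- (8.45%). Leaving out 1 library gave 0 to 1 higher and 0 to 2 lower in TNRC6A-/- (5.92% to 8.64% and 3.14% to 5.1%). TNRC6B-/- had 0 to 1 and 0 to 3 (1.01% to 7.27% and 0.563% to 3.32%). TNRC6AB-/- had 3 to 10 and 0 to 11 (11.9% to 17% and 10.3% to 12.1%), and TNRC6AB-/- siGL2 0 higher (6.6% to 7.52%). For siTNRC6C in TNRC6AB-/- cells 0 to 2 were lower (0.982% to 3.46%), and in TNRC6AB-/- siTNRC6C 9 to 18 (19.6% to 26%). The interaction of both knockouts had 0 to 4 and 0 to 1 (2.56% to 6.51% and 3.11% to 8.44%). The cause of these shifts was not tested. Same-numbered deviations from the group means correlated between -0.152 and 0.354 over all genes. The highest values were 0.354 and 0.219, for replicates 3 and 1 of the 2 siGL2 groups. In both of these groups replicate 1 was above the group mean for 43 members. Replicate 3 was below it for 43 members in wild type and 42 in TNRC6AB-/- cells. Whether the replicate numbers mark a shared preparation was not tested. With a replicate block, 6 members were higher and 2 lower in TNRC6AB-/- (16.8% and 11.9%). For siTNRC6C in TNRC6AB-/- cells 2 were lower (3.64%), and in TNRC6AB-/- siTNRC6C 18 (24.8%), and the block changed no other count. Depth did not remove a member, since all 43 passed the filter in 24153 tested genes.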
